A study of Rattus norvegicus with 12 samples.

Results

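The promoters described here were covered by short array probes and carried a high ratio of methylated to input DNA in the rat kidney. The ratio comes from MeDIP (methylated DNA immunoprecipitation), where methylated fragments are captured with an antibody to 5-methylcytosine, and an array then compares the precipitated DNA (Cy5) with the input DNA (Cy3). A promoter was taken as a cluster of at least 3 probes on an autosome, with starts no more than 1000 bp apart and a total span of up to 5000 bp. It counted as short-probe when its probes averaged under 48 bases. It counted as high when its level was at least 0.3, where the level is log2(Cy5/Cy3) of the median signals minus the median of the array, averaged over probes and over all 12 arrays. The rule kept 2586 promoters, called the members here, out of 15221 autosomal promoters of this size, called eligible. In all, 16055 promoters were tested, which were limited neither by chromosome nor by span. The members were thus chosen by probe length and by this level, which is given as a description without a test. Differences between diet groups were not part of the rule.

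The DNA came from kidneys of male pups aged 6 weeks, of the SHRSP strain (stroke-prone spontaneously hypertensive rats), which is inbred and develops hypertension. The name of a group gives the diet of the pregnant dam and then that of the pup, where CN is a diet of 20% casein, LP of 9%, and HP of 40%. The 4 groups, with 3 arrays each, were mCN-CN (20% for dam and pup, arrays 1 to 3), mLP-CN (9% and then 20%, arrays 4 to 6), mLP-HP (9% and then 40%, arrays 7 to 9), and mLP-LP (9% for both, arrays 10 to 12). All dams and pups received the CN diet from birth until the pups were separated, and the pup diets began then. Whether each array held 1 animal, and how many dams the pups of a group came from, is not given in the sources used here. The p-values therefore measure the spread between arrays, which may not be that between litters. Kidney DNA holds all cell types of the organ, and a shift in the makeup of cells and a shift of methylation within cells cannot be told apart.

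Promoters rich in CpG are mostly free of methylation in healthy tissue, and the exceptions best known are promoters of germline genes and imprinted genes, where methylation goes with silencing of the gene. Because the antibody binds single methylated cytosines, the MeDIP ratio rises both with the share of CpGs that are methylated and with their number in a fragment. On arrays with probes of varied length, shorter probes are usually placed in sequence richer in G and C, which keeps hybridization even. The files list each probe by identifier and position (build rn4) and do not pair it with a gene or give its sequence. Base composition, CpG density, and gene names of the members, and the tissue markers of these samples, were therefore not analysed here. The label "GC-rich" rests on probe length alone, and "high methylation" on the ratio relative to other probes of the same array.

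The arrays were read in 5 scans on 3 days. Scan 1 held mCN-CN 1 and 2, and scan 2 held mCN-CN 3 together with mLP-CN 4, 5, and 6. Scan 3 held mLP-HP 7, scan 4 held mLP-HP 8 and 9 together with mLP-LP 10, and scan 5 held mLP-LP 11 and 12. No mLP-HP or mLP-LP array shared a scan or a day with an mLP-CN array, so for those comparisons scan and diet cannot be told apart. On mCN-CN 3, 15.2% of the spots of the members carried an outlier flag and were treated as missing, against 0.166% to 7.09% on the other 11 arrays. When pairs of arrays were compared over the 2586 members, Pearson's r was 0.812 to 0.913 within a group and scan, and 0.379 to 0.828 within a group but across scans. For arrays of different groups in the same scan it was 0.609 to 0.881. The points here are promoters of the same libraries, so no test was made.

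The members made up 17.0% of the eligible promoters and 37.5% of the 6889 eligible short-probe promoters. Of the 3035 eligible promoters with a level of at least 0.3, 85.2% had short probes, and only 5.39% of the long-probe promoters (mean of 48 bases or more) reached that level. Each member had a median of 10 probes over 1668 bp, and together they held 24696 probes. Their median level was 0.45, with quartiles of 0.37 and 0.55. The level lay between 0.3 and 0.5 in 1663 members, between 0.5 and 1 in 910, and at 1 or more in 13. Near the threshold, 468 members lay within 0.05 above it and 487 short-probe promoters lay within 0.05 below it.

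The highest level was 1.57, at chr19:14554298-14554986, a promoter with 4 probes of 45 bases that read between 1.40 and 1.74. After quantile normalization it stood at 1.44, 1.40, and 1.22 on the mCN-CN arrays and at 1.32, 1.28, and 1.36 on the mLP-CN arrays. On the mLP-HP arrays it stood at 1.19, 1.40, and 1.43, and on the mLP-LP arrays at 1.43, 1.21, and 1.24. All 12 arrays lay close together and the groups overlapped, with limma adjusted p-values of 0.763 to 0.862 over the 4 comparisons. The next were chr3:117910193-117910633 (level 1.28, 3 probes), chr10:6986232-6986922 (1.20, 5 probes), and chr5:152101693-152102396 (1.18, 4 probes). These 4 promoters were shorter and had fewer probes than a typical member. At the lower border, chr3:11208311-11209972 (0.3002) and chr3:142945228-142946939 (0.3004) were members. The promoters chr1:94944070-94945812 (0.2996) and chr10:10475120-10476489 (0.2995) lay just below the threshold and were not. The promoters on either side of the border had 8 to 11 probes, which ranged from below −0.3 to above 1 within each promoter.

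How high the members stood depended on the correction of the values. The threshold of 0.3 was also reached by 2540 of the 2586 in the authors' own table of log2 values, by 2359 in the processed signals of the scanner software, and by 2045 after normexp background correction and quantile normalization. After loess normalization within each array, which removes the trend of the ratio with spot brightness, 1026 reached it, and 2575 stayed above 0. In the values of the rule, 2543 members were above 0 on every one of the 12 arrays, and 723 were at 0.3 or more on every one.

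The level fell with the length of the probe, also inside the members. Of their probes, 76.8% had 45 bases, the shortest length among them, and these averaged 0.56 (SD 0.61 over 18966 probes). Probes of 48 to 50 bases averaged 0.15 (SD 0.72, 1586 probes), and those of 56 to 60 bases averaged −0.29 (SD 0.80, 640 probes). The same slope was present in the other 4303 short-probe promoters, from 0.23 at 45 bases to −0.89 at 56 to 60. It was present in the 449 long-probe promoters with a level of at least 0.3 as well, from 0.69 to −0.20. At a given probe length, the members therefore lay above the other short-probe promoters and below the long-probe promoters of high level. Each of these sets was chosen by level and mean probe length, so neither gap is a separate finding. In 291 members every probe had 45 bases.

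**Figure D1:**
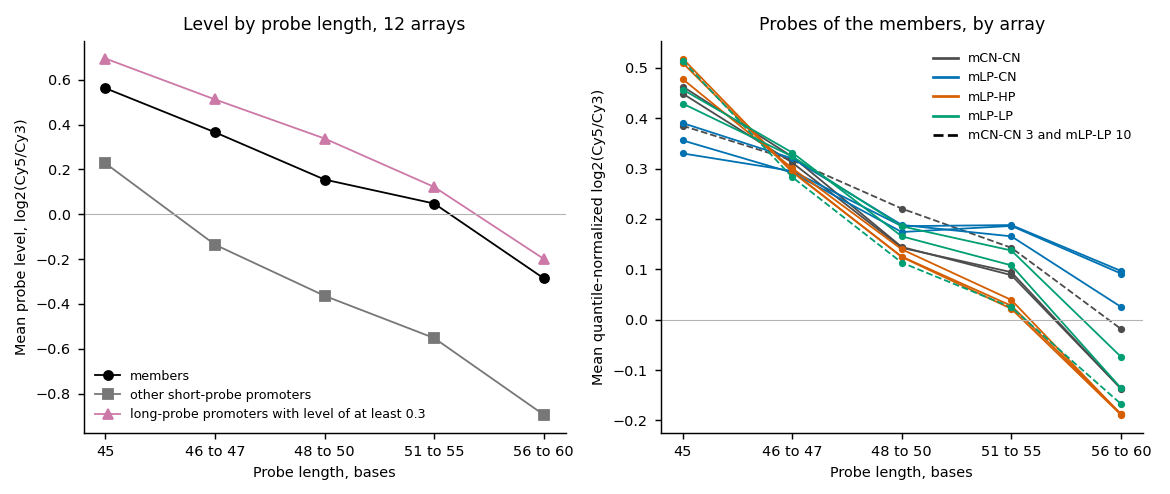
Left, mean log2(Cy5/Cy3) of probes by probe length in bases, over all 12 arrays, for the members, the other short-probe promoters, and the long-probe promoters with a level of at least 0.3; the mean falls with length in all 3. Right, mean quantile-normalized log2(Cy5/Cy3) of the members' probes on each array, coloured by group, with dashed lines for mCN-CN 3 and mLP-LP 10. The mLP-CN arrays show the flattest lines, and the mLP-HP arrays and mLP-LP 10 the steepest.

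The ratio was not even along a member. Among the 2445 members with at least 6 probes and a probe in the middle part and at both ends (3 parts of equal length), the highest and the lowest probe differed by a median of 2.03, and every probe was above 0 in 121 of them (4.95%). A probe below −1 was present in 23.6% of these members, and in 31.2% of the long-probe promoters of high level. It was present in 71.0% of the other short-probe promoters, which the rule set apart by their lower level. The middle part was the highest of the 3 in 824 members, the lowest in 767, and between the ends in 854. The higher end averaged 0.71 and the lower end 0.20, with a median gap between the ends of 0.41. Averaged over all members, the level was flat near the centre, at 0.49 within 150 bp and 0.50 between 450 and 600 bp. It was lower at the outer edge, at 0.38 between 750 and 900 bp, where the mean probe length was 46.5 bases rather than 45.9 at the centre. The orientation of the genes is not known here, so the ends were not assigned to upstream or downstream.

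The widest range was found at chr7:12419385-12421099 (level 0.33), whose 10 probes ran from −3.60 to 1.89. The second widest was at chr3:4616958-4618647 (level 0.45), with 11 probes from −3.33 to 1.77. In both, the low end came from a single probe of 60 bases, and all other probes, of 45 to 48 bases, lay above 0. Among members with at least 6 probes, the narrowest range was found at chr19:49690173-49691941 (level 0.33), whose 7 probes of 45 bases lay between 0.16 and 0.61. The next narrowest was at chr2:234128880-234130568 (level 0.43), with 8 probes of 45 bases between 0.16 and 0.67. A level near the threshold could thus come from uniformly raised probes or from high probes beside a very low one.

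**Figure D2:**
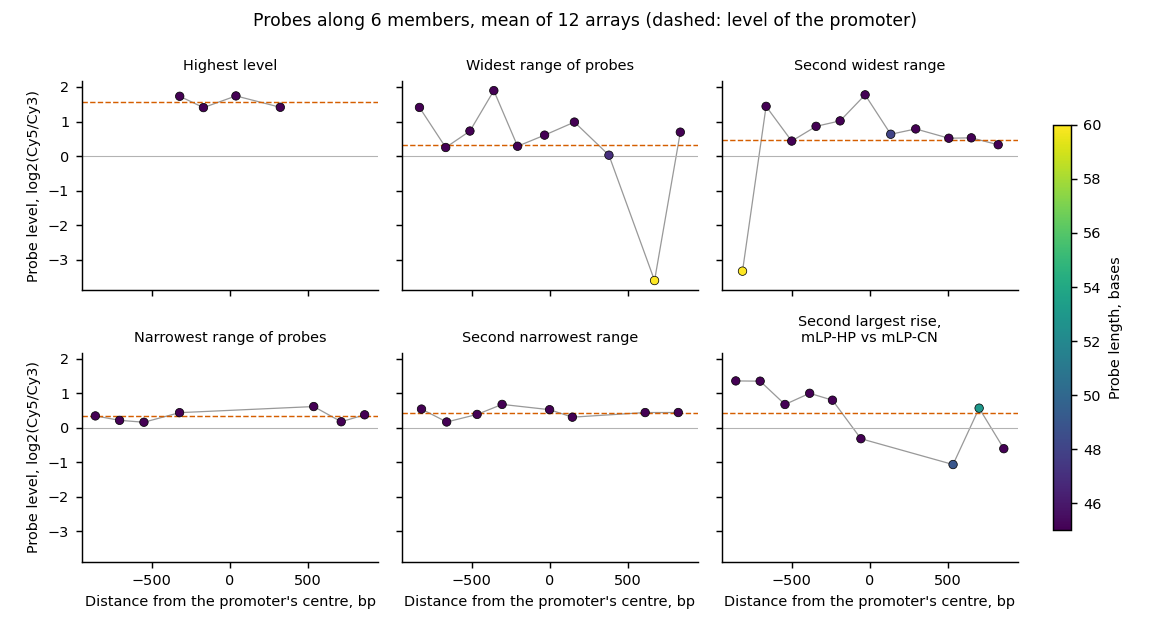
Level of each probe, log2(Cy5/Cy3) averaged over 12 arrays, against its distance in bp from the centre of the promoter, for 6 members; colour gives the probe length in bases and the dashed line the level of the promoter. The promoters with the widest range hold 1 probe of 60 bases below −3, whereas those with the narrowest range stay between 0.16 and 0.67 along their length.

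Members were found on all 20 autosomes. They were most frequent among the eligible promoters of chromosome 19 (114 of 396, 28.8%) and chromosome 12 (103 of 428, 24.1%), and least frequent on chromosome 11 (40 of 401, 9.98%) and chromosome 2 (102 of 958, 10.6%). Within the short-probe promoters alone the range was narrower, from 28.4% on chromosome 11 to 46.3% on chromosome 19. The next eligible promoter along a chromosome was a member after 24.9% of members, after 22.3% of the other short-probe promoters, and after 11.8% of the long-probe promoters. Most members (1514) stood alone between promoters that were not members, and 580 stood in pairs. The longest uninterrupted series had 8 members, from 19193376 to 19349337 on chromosome 16 (155962 bp), with levels of 0.33 to 0.83. One of 7 members lay on chromosome 10, from 14524052 to 14722294, with levels of 0.30 to 0.77. The closest members were chr7:114708053-114709409 and chr7:114710373-114710728, with 963 bases between them, and levels of 0.49 and 0.47. In the pair chr6:25781647-25782015 and chr6:25782983-25783342, 967 bases apart, the levels were 0.37 and 0.43.

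The arrays of the mLP-CN group read the members lower than any other array in centred and in quantile-normalized values, but not after loess or in the authors' table. In normexp-corrected values centred on the array median, the median level over the members was 0.18, 0.21, and 0.16 on the mLP-CN arrays and 0.38, 0.40, and 0.38 on the mCN-CN arrays. It was 0.53, 0.58, and 0.55 on the mLP-HP arrays. On the mLP-LP arrays it was 0.52 for array 10, which was scanned with mLP-HP arrays, and 0.38 and 0.39 for arrays 11 and 12. The groups did not overlap except that mLP-LP spanned from the mCN-CN values to just below the mLP-HP values. After quantile normalization, which forces all arrays to one distribution, the values were 0.30, 0.35, and 0.31 for mLP-CN, 0.37, 0.39, and 0.39 for mCN-CN, 0.41, 0.42, and 0.43 for mLP-HP, and 0.43, 0.39, and 0.39 for mLP-LP. The order of the group means was kept over a narrower range, from 0.32 ± 0.02 in mLP-CN to 0.42 ± 0.01 in mLP-HP (SD of the array medians, n = 3). After loess within arrays all 12 medians lay between 0.25 and 0.30, and those of mLP-CN (0.25 to 0.27) overlapped those of mCN-CN (0.25 to 0.28). In the authors' table mLP-CN 5 stood at 0.445, above mCN-CN 3 (0.435) and mLP-LP 11 (0.434).

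**Figure D3:**
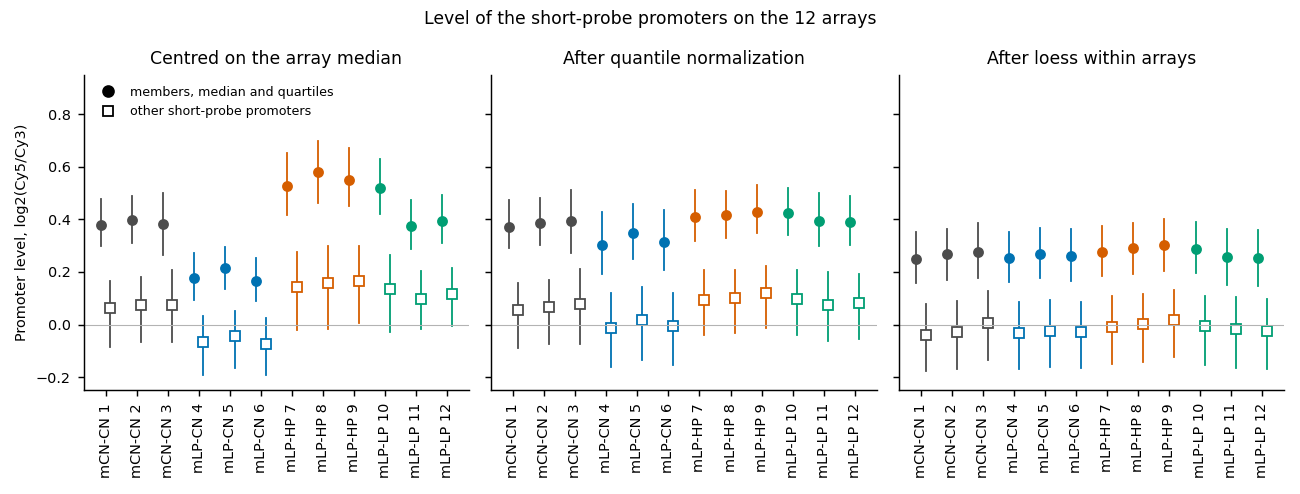
Median promoter level, log2(Cy5/Cy3), with quartiles on each of the 12 arrays, for the members (filled circles) and the other short-probe promoters (open squares), in values centred on the array median, quantile normalized, and loess normalized. The mLP-CN arrays are lowest in the left panel (0.16 to 0.21 for the members), remain lowest after quantile normalization, and level with mCN-CN after loess.

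The signals behind these medians differed between groups in both channels. In the precipitated DNA mLP-CN was lowest and the other groups overlapped, and in the input mLP-HP and mLP-LP were lower than mLP-CN and mCN-CN. Over the members' probes the median Cy5 intensity was 165 to 182.5 on the mLP-CN arrays, 240 to 292.5 on the mCN-CN arrays, 220.5 to 263.25 on the mLP-LP arrays, and 249 to 315 on the mLP-HP arrays. The median Cy3 intensity of the input was 186 to 210 for mLP-CN and 180 to 203.5 for mCN-CN, and lower for mLP-HP (131 to 172) and mLP-LP (118.5 to 170). Over all probes of the array the median Cy5 intensity was again lowest for mLP-CN (94 to 103), and it was 129 to 151 for mCN-CN, 125 to 153 for mLP-HP, and 119.5 to 131.5 for mLP-LP, which overlapped. The part of these intensities in the differences between groups was not tested. Of the 2586 members, 2575 had at least 3 probes well above background in both channels on at least 6 arrays, 11 had 1 or 2 such probes, and none had 0. In 800 members every probe was well above background in this way.

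Of the 4 group means, that of mLP-CN was the lowest in 1488 members (57.5%), against 38.2% of all promoters tested. That of mLP-HP was the highest in 1162 members (44.9%), against 33.1% of all promoters tested. The mCN-CN mean was the lowest in 309 members (11.9%, against 13.3% of all promoters tested) and the mLP-LP mean in 257 (9.94%, against 15.3%). The mLP-HP mean was the lowest in 532 members (20.6%, against 33.2%).

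The comparison of mLP-CN with mCN-CN addresses what a maternal low-protein diet leaves in the kidney of pups fed the CN diet. Most members were slightly lower in the mLP-CN group, and few passed the test. In limma, fitted to all 16055 promoters and adjusted by Benjamini-Hochberg at 0.05, 105 members had a lower ratio in mLP-CN (4.06%, against 2.24% of all promoters). Only 5 members had a higher ratio (0.193%, against 1.14% of all promoters). The median difference over the members was −0.06 in quantile-normalized log2 units, against −0.02 over all promoters, and the median standard error of a member's difference was 0.06. The 3 mLP-CN arrays were all below the mCN-CN arrays in 639 members (24.7%, against 16.6% of all promoters), and above in 105 (4.06%, against 9.17%). The 105 members called lower differed by a median of −0.25, and their levels (median 0.44) were close to those of the members not called (0.45).

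The largest fall was at chr5:145449553-145451067 (6 probes), which stood at 0.33, 0.40, and 0.68 on the mCN-CN arrays and at 0.05, −0.02, and 0.18 on the mLP-CN arrays. The difference was −0.40 (standard error 0.08, limma adjusted p = 0.0141), and the mLP-HP and mLP-LP arrays (0.30 to 0.45) overlapped the mCN-CN arrays. The second was at chr10:59437903-59438898 (7 probes of 45 bases), with 0.58, 0.60, and 0.49 in mCN-CN and 0.02, 0.30, and 0.16 in mLP-CN. Here too the difference was −0.40 (standard error 0.07, adjusted p = 0.0116), and the mLP-HP arrays stood at 0.57, 0.59, and 0.61. At both promoters the mLP-CN arrays were the lowest 3 of the 12. In the processed signals the differences were −0.23 and −0.13, and after loess −0.19 and −0.15, none of which passed the test. Without mLP-CN 4 both falls missed the threshold (−0.39, adjusted p = 0.0669, and −0.33, adjusted p = 0.0662). The fall on chromosome 10 also missed it without mCN-CN 1 (adjusted p = 0.051), mCN-CN 2 (0.0506), or mLP-CN 6 (0.0678), at −0.37 to −0.39.

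The 2 largest rises were at promoters with dim probes. At chr2:244116895-244117320, 2 of 3 probes were well above background in each group, and the promoter stood at 0.61, 0.53, and 0.82 in mCN-CN and at 0.93, 0.97, and 1.01 in mLP-CN. The difference was 0.32 (standard error 0.07, limma adjusted p = 0.0209), but without quantile normalization it was −0.03 (adjusted p = 0.827) and in the processed signals it was 7.17e-05 (adjusted p = 1.00). At chr9:6007657-6008011, where 1 of 3 probes was well above background, the values were 0.13, 0.35, and 0.54 in mCN-CN and 0.75, 0.79, and 0.66 in mLP-CN. The difference was 0.39 (standard error 0.09, adjusted p = 0.0268) and turned to −0.09 in the processed signals (adjusted p = 0.999). Both rises also missed the threshold without any 1 of mCN-CN 1, mCN-CN 2, mLP-CN 4, or mLP-CN 6, and with the scan as a block of either kind, and the rise on chromosome 9 missed it without mLP-CN 5.

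The number of members called lower hung on single arrays and on the scan. Without mCN-CN 3, the only mCN-CN array read with the mLP-CN arrays, 322 members were lower and 47 higher. Without mCN-CN 1 or 2 the lower ones numbered 16 and 11, and without mLP-CN 4, 5, or 6 they numbered 12, 64, and 7. With scan as fixed block, mLP-CN was set against mCN-CN 3 alone, the array with the most outlier flags. The fit assumed that this array varied like those sharing a group and scan, and gave 312 members lower and 40 higher, with a median difference of −0.06. These counts rest on 1 array of mCN-CN and are no replicated comparison.

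The comparison of mLP-LP with mLP-CN addresses a low-protein pup diet after the maternal one. Members rose more often than they fell. In limma 545 members had a higher ratio in mLP-LP (21.1%, against 11.8% of all promoters) and 51 had a lower one (1.97%, against 7.92%). The median difference over the members was 0.08, against 0.02 over all promoters. The difference was above 0 in 74.2% of the members, 73.8% of the other short-probe promoters, and 54.5% of all promoters. Every mLP-LP array lay above every mLP-CN array in 861 members (33.3%, against 20.7% of all promoters) and below in 128 (4.95%, against 15.1%). Members called higher had a median level of 0.43 and those called lower had 0.47.

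At chr12:42696398-42696743 (3 probes of 45 bases), the mLP-CN arrays stood at 0.04, 0.01, and −0.09, and the mLP-LP arrays at 0.53, 0.56, and 0.38. The difference was 0.50 (standard error 0.06, limma adjusted p = 0.000232), and 2 of the 3 probes were well above background in mLP-CN. The mCN-CN arrays (0.13, 0.14, and −0.03) were near the mLP-CN arrays at this promoter, and the mLP-HP arrays (0.42, 0.44, and 0.42) were near mLP-LP. At chr3:159773156-159773672 (4 probes), mLP-CN stood at 0.04, 0.07, and 0.08 and mLP-LP at 0.42, 0.67, and 0.57, a difference of 0.49 (standard error 0.06, adjusted p = 0.000232). Its mCN-CN arrays (0.40, 0.48, and 0.37) lay far above mLP-CN, with a difference of −0.35 for mLP-CN vs. mCN-CN (adjusted p = 0.00877). Both rises kept their sign and lost the test in the processed signals (adjusted p = 0.226 and 0.14) and after loess (0.116 and 0.0839). The largest falls were again at chr2:244116895-244117320, from 0.97 ± 0.04 to 0.47 ± 0.02 (SD, n = 3), and at chr9:6007657-6008011, from 0.73 ± 0.07 to 0.28 ± 0.18 (SD, n = 3), with the dim probes named above. The fall on chromosome 2 was −0.08 in the processed signals (adjusted p = 0.835), −0.08 without background correction (0.749), −0.15 without quantile normalization (0.113), −0.05 after loess (0.839), and −0.34 in the authors' table (0.0684), and lost its call in each. The fall on chromosome 9 lost its call in the same settings and with scan as random block, and turned to a difference of 0.17 in the processed signals (adjusted p = 0.687).

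These counts depended on the setting. No scan held arrays of both groups, so a block for the scan cannot separate it from diet here. With scan as random block, 9 members were higher and 1 was lower, while the median difference stayed at 0.09. The processed signals and the loess values gave 0 in either direction. More members were called higher with the filter on dim probes, and without quantile normalization, which gave 1897. Without mLP-CN 4, mLP-CN 6, or mLP-LP 12, the members called higher numbered 261, 282, and 331. The members called lower numbered 21, 16, and 14 without those arrays and 33 without mLP-CN 5.

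The comparison of mLP-HP with mLP-CN addresses a high-protein pup diet after the maternal low-protein diet, and it gave the most calls. In limma 895 members had a higher ratio in mLP-HP (34.6%, against 21.3% of all promoters) and 162 had a lower one (6.26%, against 17% of all promoters). The median difference over the members was 0.10, against 0.01 over all promoters. Every mLP-HP array lay above every mLP-CN array in 1202 members (46.5%, against 30.7% of all promoters) and below in 306 (11.8%, against 25.8%). Members called higher had a median mean probe length of 45.7 bases, those called lower had 46.5, and those not called had 46.1. The split of higher and lower calls moved with the scaling, to 2313 and 1 without quantile normalization, 1296 and 9 in the processed signals, 1822 and 1 without background correction, and 103 and 36 after loess.

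The second largest rise was at chr5:159668820-159670580 (9 probes, 8 of them well above background). It passed the test under all 13 alternatives, which were changes of processing, scan as random block, and leaving out single arrays of these groups. Its mLP-CN arrays stood at −0.003, 0.15, and 0.12 and its mLP-HP arrays at 0.64, 0.78, and 0.85, a difference of 0.67 (standard error 0.09, limma adjusted p = 7.82e-05). The mCN-CN arrays (0.31, 0.18, and 0.33) lay between the groups. Among the mLP-LP arrays, array 10, scanned with mLP-HP 8 and 9, stood at 0.71, and arrays 11 and 12 stood at 0.38 and 0.24. Over the alternatives the adjusted p was 1.44e-05 to 0.0113. Along this promoter the first 5 probes, all of 45 bases, had levels of 0.67 to 1.35, and 3 of the last 4 were below 0.

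The largest rise, 0.75 (standard error 0.17, limma adjusted p = 0.00248), was at chr6:25446164-25446871, which has 3 probes of 45 bases. It stood at −0.07, −0.09, and 0.09 in mLP-CN and at 1.00, 0.56, and 0.62 in mLP-HP. The mLP-LP arrays split, with 0.74 for array 10 and −0.22 and −0.17 for arrays 11 and 12, and the mCN-CN arrays were at −0.02, 0.03, and −0.22. With scan as random block the rise was 0.52 (adjusted p = 0.0933), and after loess it was 0.23 (adjusted p = 0.356). The largest falls were at chr2:244116895-244117320, from 0.97 ± 0.04 to 0.34 ± 0.11 (SD, n = 3, adjusted p = 2.84e-05 in limma), and at chr1:89163856-89164246 (3 probes). The latter stood at 0.82, 0.66, and 0.80 in mLP-CN and at 0.15, 0.37, and 0.25 in mLP-HP, a difference of −0.50 (standard error 0.08, adjusted p = 0.000157). The fall on chromosome 1 was −0.11 without quantile normalization (adjusted p = 0.215), −0.15 without background correction (0.265), and −0.20 in the processed signals (0.266). The one on chromosome 2 was −0.15 both without background correction (0.297) and in the processed signals (0.392), and turned to 0.04 after loess (0.762).

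With scan as random block, 263 members were higher and 19 were lower in mLP-HP, and 280 of these 282 were among the calls without the block. Leaving out single arrays of these groups gave between 636 and 820 members called higher. The members called lower then numbered between 104 (without mLP-HP 7) and 130. Array mCN-CN 3 is outside this comparison but enters the estimate of the spread. Without it 1205 members were called in either direction, against 1057 with all arrays.

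**Figure D4:**
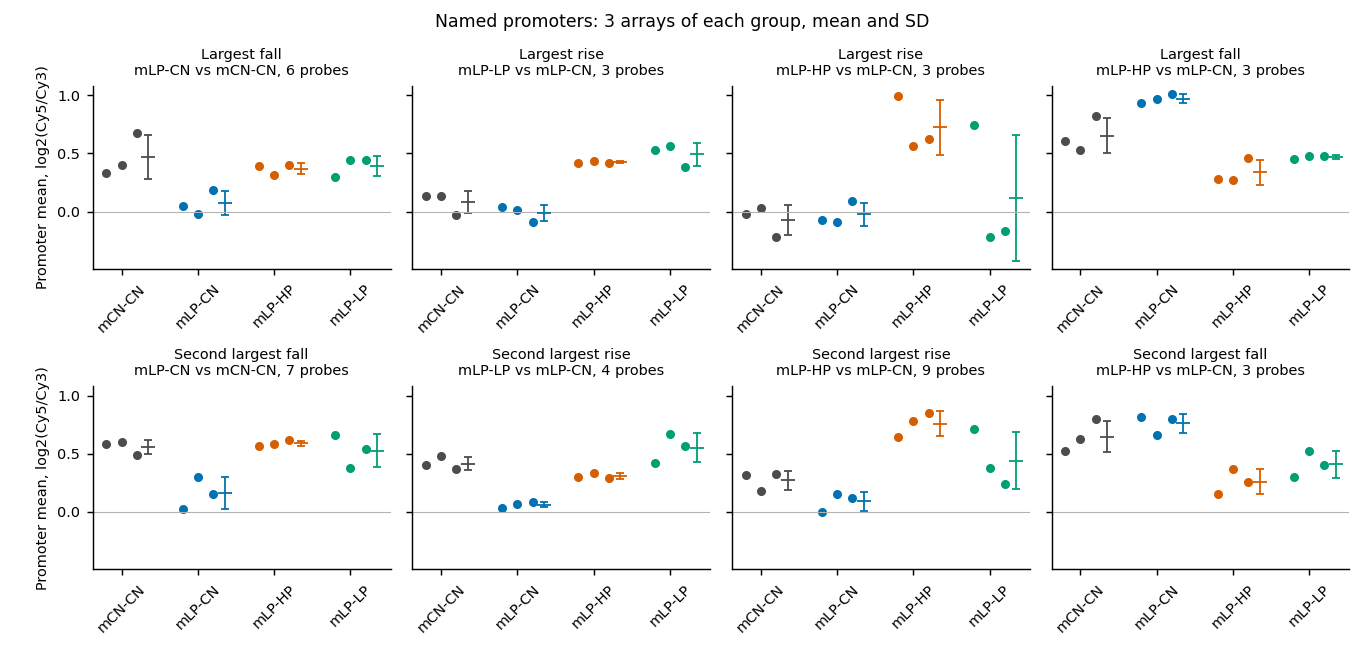
Mean quantile-normalized log2(Cy5/Cy3) of 8 named promoters on each of the 3 arrays of the 4 groups (dots, in the order of the array numbers), with the mean and SD beside them. The mLP-CN arrays lie lowest in the panels of falls against mCN-CN, and the largest rise in mLP-HP has an mLP-LP array at 0.74 and the other two near −0.2.

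Between the pup diets, limma called 0 members higher and 0 lower in mLP-HP than in mLP-LP, as it called 0 (0% in both directions) of all promoters. At an unadjusted p under 0.05 there were 531 members (20.5%), against 3150 (19.6%) of all promoters. The median difference over the members was 0.02, with a median standard error of 0.06. The arrays of mLP-HP lay above those of mLP-LP in 266 members (10.3%, against 9.49% of all promoters) and below in 233 (9.01%, against 10.1%). The smallest p for a rise was at chr17:12708152-12709879 (10 probes), with 0.63, 0.55, and 0.54 in mLP-HP and 0.44, 0.12, and 0.15 in mLP-LP. Its difference was 0.34 (standard error 0.07, adjusted p = 0.113). The smallest p for a fall was at chr20:43869417-43870870 (4 probes, level 1.1), with 0.59, 0.63, and 0.61 in mLP-HP and 0.95, 1.38, and 1.22 in mLP-LP, a difference of −0.57 (standard error 0.10, adjusted p = 0.0796). At both, mLP-LP array 10 was the nearest of its group to the mLP-HP arrays. Without that array, limma called 398 members higher and 226 lower, and the pup diets then came from different days. The share of all promoters called without that array is not given here. With scan as fixed block, mLP-HP 8 and 9 were set against mLP-LP 10 alone, assumed to vary like the arrays sharing a group and scan. That fit called 0, with a median difference of −0.001, and does not compare the pup diets with replicates. Values without quantile normalization gave 539 higher and 11 lower, processed signals 176 and 0, and values without background correction 407 and 10. The authors' table, the filter on dim probes, and the scan as a block gave 0 in both directions, and loess gave 1 lower.

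The shares of members called lay near those of the other short-probe promoters in each comparison. The 4303 other short-probe promoters had 3.88% lower and 0.186% higher in mLP-CN vs. mCN-CN. They had 20.4% higher and 1.49% lower in mLP-LP vs. mLP-CN, and 36% higher and 5.35% lower in mLP-HP vs. mLP-CN. Their median differences were −0.06, 0.08, and 0.10, and those of the members were −0.06, 0.08, and 0.10. The members' median differed from that of all promoters by −0.04, 0.06, and 0.08 in these 3 comparisons, but by 0.006, −0.005, and 0.02 after loess and by 0.01, 0.005, and 0.02 with the filter on dim probes. It was larger without background correction (−0.14, 0.11, and 0.29), without quantile normalization (−0.11, 0.13, and 0.26), and in processed signals (−0.05, 0.09, and 0.29). In the 449 long-probe promoters with a level of at least 0.3 the medians were −0.01, −0.004, and 0.004. There, 6.68% were higher and 8.24% lower in mLP-LP vs. mLP-CN, and 12% were higher and 18.9% lower in mLP-HP vs. mLP-CN. The comparisons share the mLP-CN arrays, so they are not independent of each other, and these shares are given without a test between the sets.

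**Figure D5:**
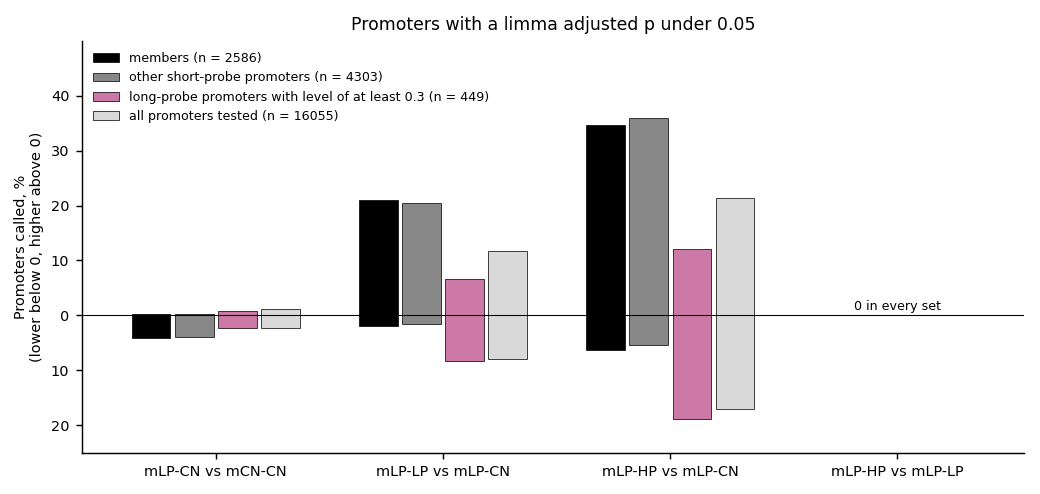
Percent of promoters with a limma adjusted p under 0.05, higher above 0 and lower below 0, for the members, the other short-probe promoters, the long-probe promoters with a level of at least 0.3, and all promoters tested, in the 4 comparisons. Members and other short-probe promoters have bars of similar height (34.6% and 36% higher in mLP-HP vs. mLP-CN), the long-probe set has more lower than higher calls for both pup diets, and mLP-HP vs. mLP-LP has none.

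The share of members called was also split by level and by the number of probes. In mLP-HP vs. mLP-CN, 37.6% of the 647 members with the lowest levels (0.30 to 0.37) and 29.1% of the 647 with the highest (0.55 to 1.57) were called higher. By the number of probes, 36.3% of the 113 members with 3 to 5 probes were called higher, and 37.3% of the 158 with 12 or more. Of the 5 members called higher in mLP-CN vs. mCN-CN, 4 had 3 to 5 probes.

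The differences followed probe length inside the members. From mCN-CN to mLP-CN, the probes of 45 bases differed by −0.09 on average, those of 48 to 50 bases by 0.008, and those of 56 to 60 bases by 0.16. From mLP-CN to mLP-HP the same classes differed by 0.16, −0.05, and −0.25, and from mLP-CN to mLP-LP by 0.12, −0.02, and −0.19. The other short-probe promoters gave −0.11 at 45 bases and 0.16 at 56 to 60 bases for mLP-CN vs. mCN-CN. The long-probe promoters of high level gave −0.08 and 0.16.

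Per array, the gap between the members' probes of 45 bases and those of 56 to 60 bases was 0.23, 0.36, and 0.26 in quantile-normalized log2 units on mLP-CN 4, 5, and 6. It was 0.67, 0.70, and 0.71 on mLP-HP 7, 8, and 9. On mCN-CN 1 and 2 it was 0.59 and 0.60, and on mCN-CN 3, scanned with the mLP-CN arrays, it was 0.40. On mLP-LP 11 and 12 it was 0.50 and 0.59, and on mLP-LP 10, scanned with mLP-HP arrays, it was 0.68. Array mCN-CN 3 thus lay between its group and mLP-CN, and mLP-LP 10 lay within the range of mLP-HP. Over all members, mLP-LP 10 was nearer to the mean of mLP-HP 8 and 9 than to the mean of mLP-LP 11 and 12 in 76.5%, and mCN-CN 3 was nearer to its scan in 52.0%. Over all promoters tested these shares were 73.7% and 55.3%. The part of probe length and of the scan in the differences between diet groups was not tested.

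In the longest series, on chromosomes 16 and 10, some members passed the test and others did not. Of the 8 on chromosome 16, 5 were higher in mLP-HP and 3 in mLP-LP than in mLP-CN, and 1 was lower in mLP-CN than in mCN-CN. That one, chr16:19309597-19311346, differed by −0.27 from mCN-CN to mLP-CN (limma adjusted p = 0.0145) and by 0.39 from mLP-CN to mLP-HP (adjusted p = 8.35e-05). Its neighbour chr16:19240886-19242483 differed by 0.02 and −0.03 in these comparisons. Of the 7 on chromosome 10, 5 were higher in mLP-HP and 2 in mLP-LP, and none was lower. For comparison, 34.6% of all members and 21.3% of all promoters were higher in mLP-HP, and 21.1% and 11.8% in mLP-LP. The shares lower in mLP-CN than in mCN-CN were 4.06% and 2.24%. The counts in these short series were not tested against those shares. At the closest pair, chr7:114710373-114710728 was higher in mLP-HP than in mLP-CN by 0.33 (adjusted p = 0.0022), whereas chr7:114708053-114709409 differed by 0.07 (adjusted p = 0.345), a contrast between neighbours that was not itself tested.

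The spread between arrays of a group was close to that of all promoters. The median SD over the members was 0.047 in mLP-HP, 0.062 in mLP-CN, 0.069 in mCN-CN, and 0.076 in mLP-LP, against 0.048, 0.060, 0.070, and 0.077 over all promoters tested. The number of arrays limits the precision, and the smallest difference called in a member was 0.13, in mLP-HP vs. mLP-CN.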

How the data were processed

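Kidney DNA from 12 offspring samples (4 diet groups of 3 arrays) was hybridized to a rat promoter array of 179525 spots (build rn4), with immunoprecipitated DNA in Cy5 and input DNA in Cy3 on every array. The authors deposited scanner files (Agilent Feature Extraction 11.0.1.1) with spot intensities, and a table of log2 values that their methods describe as median centred, quantile normalized, and smoothed; the deposited table does not state its scale. Here the median intensities were background corrected (normexp, offset 50), control spots (6856) were left out, outlier spots were set to missing, and log2(Cy5/Cy3) was centred on each array median and quantile normalized. Promoters were clusters of at least 3 probes with start gaps up to 1000 bp. The limits to autosomes and to a span of 5000 bp held for the 15221 eligible promoters, and thus for the members. They did not hold for all promoters tested, whose longest span was 99717 bp. A promoter's value was the mean of its probes, with missing spots filled through the deviations of its other probes on that array. All 16055 promoters were fitted in limma 3.58.1 (R 4.3.3) over all 4 groups with 8 residual degrees of freedom, and p-values were adjusted by Benjamini-Hochberg at 0.05 in each comparison. The script was tested on simulated data. Promoters were named for the highest levels, for values next to the threshold, for the 2 largest rises and falls among called members whose arrays did not overlap (or the smallest p where none was called), for the widest and narrowest probe range, and for the shortest distance to each other. Gene lists of germline, imprinted, protocadherin, and Hox genes could not be matched to probes. The members and lists were chosen with earlier results of these data known. The alternatives were no background correction, processed signals, no quantile normalization, loess within arrays, the authors' table, a filter on dim probes, the scan as a block, and leaving out each array of the groups compared. The median difference over the members and the recount of members under other values were added after seeing the data. A dim probe was one not well above background in both channels on at least 6 arrays. The replicate numbers and array order follow the labels.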

Additional observations from a re-analysis of the deposited data

How the results depend on the processing

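No paired analysis was possible because the labels number the 12 samples consecutively, and no number occurs in more than 1 group. Counts of members are given as higher and lower, and the ranges for single arrays left out cover only arrays of the groups compared. For mLP-CN vs. mCN-CN (5 and 105), they were 0 and 140 without background correction, 0 and 0 in processed signals, 0 and 1240 without quantile normalization, 0 and 0 after loess, 7 and 28 in the authors' table, 1 and 282 with the filter on dim probes, 8 and 200 with scan as random block, and 40 and 312 with scan as fixed block. Leaving out single arrays gave 0 to 47 and 7 to 322. For mLP-LP vs. mLP-CN (545 and 51), they were 18 and 0, 0 and 0, 1897 and 0, 0 and 0, 9 and 1, 786 and 9, and with the random block 9 and 1, in the same order. Leaving out single arrays gave 261 to 519 and 14 to 67. Without mCN-CN 3, which is outside this comparison, 775 members were called in either direction, against 596 with all arrays. For mLP-HP vs. mLP-CN (895 and 162), they were 1822 and 1, 1296 and 9, 2313 and 1, 103 and 36, 583 and 135, 1197 and 49, and with the random block 263 and 19. Leaving out single arrays gave 636 to 820 and 104 to 130. For mLP-HP vs. mLP-LP (0 and 0), they were 407 and 10, 176 and 0, 539 and 11, 0 and 1, and otherwise 0 and 0, and leaving out single arrays gave 0 to 398 and 0 to 226. The cause of these shifts was not tested. Shares over all promoters are not given under these alternatives, so the counts cannot be read as particular to the members.

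The number of members at a level of at least 0.3 fell to 1026 after loess. The direction turned at chr9:6007657-6008011 in processed signals (−0.0855 for mLP-CN vs. mCN-CN and 0.17 for mLP-LP vs. mLP-CN). It turned at chr2:244116895-244117320 without quantile normalization (−0.0259 for mLP-CN vs. mCN-CN) and after loess (0.0443 for mLP-HP vs. mLP-CN). The median difference over the members for mLP-HP vs. mLP-LP turned to −0.00126 with the scan as a fixed block. Without quantile normalization the median over all promoters was itself −0.09, 0.12, and 0.11 in mLP-CN vs. mCN-CN, mLP-LP vs. mLP-CN, and mLP-HP vs. mLP-CN. With the filter on dim probes it was −0.12, 0.13, and 0.15. Signal over background limits most of all the 11 members with fewer than 3 bright probes. Dim probes also entered the means of all but the 800 members whose probes were all bright.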
